A study of Homo sapiens with 18 samples.

Results

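The tyrosine kinase *CSK*, 4 Src-family kinases that it inhibits (*LYN*, *FYN*, *BLK* and *LCK*) and 3 genes that act between them (*PAG1*, *PTPRC* and *PTPN22*) were followed as mRNA levels in 3 leukemia cell lines. These 8 genes of 26941 were taken by symbol from the raw count tables, with the RefSeq transcript of the highest total over the 18 samples standing for each gene. *CSK* was chosen by its measured change, a higher mRNA level with *SOX11* siRNA in each line. The others were added for their roles around it, with earlier results of these data known. The change of *CSK* with siRNA is therefore described here without a test.

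The lines REH, 697 and RCH-ACV are permanent cultures of leukemic B-cell precursors. REH carries the ETV6-RUNX1 fusion. In each line 3 samples received *SOX11* siRNA and 3 received control siRNA at 300 nM by nucleofection, an electroporation method, and total RNA was collected 48 h later. All 18 samples were thus transfected, the level of *SOX11* was lowered and not abolished, and each background was represented by few lines, REH being the 1 line with its fusion. Although the study describes the 3 samples of a group as biological replicates, p-values measure only the spread between these samples of 1 line. The comparison of the siRNAs asks which genes depend on the transcription factor *SOX11*, and the comparison of the lines shows the setting in which each kinase is expressed.

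Src-family kinases are membrane-anchored tyrosine kinases that start signaling from the B-cell receptor, the pre-B-cell receptor and related receptors. *CSK* holds them inactive by phosphorylating a tyrosine in their C-terminal tail. *PAG1* is a transmembrane adaptor that brings *CSK* to the membrane, *PTPRC* (CD45) is the receptor phosphatase that removes the phosphate from the tail, and *PTPN22* is a phosphatase that binds *CSK* and acts on the activating tyrosine of the kinase domain.

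The tail that *CSK* acts on can be read in the coding sequence. The last 10 codons of 2 Src-family kinases and of *CSK* itself, from hg19 with the GENCODE canonical transcript, are shown because the kinases carry the tyrosine codon there (in capitals) and *CSK* carries none.
*LCK*, chr1:32751285-32751314, plus strand: gccacagagggccagTACcagcctcagcct
*FYN*, chr6:111982945-111982974, minus strand: gagccccagTACcaacctggtgaaaacctg
*CSK*, chr15:75094822-75094851, plus strand: gagcacatcaaaacccacgagctgcacctg
In *LCK* the tyrosine is codon 505 of 509, with 4 codons after it, and in *FYN* it is codon 531 of 537, with 6 codons after it. *LYN* (codon 508 of 512) and *BLK* (codon 501 of 505) shared the spacing of *LCK*. *CSK* had 0 tyrosine codons among the last 10 of its 450.

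In hg19, *CSK* lies on chromosome 15 from 75074421 to 75095538 and *LCK* on chromosome 1 from 32716845 to 32751766. *PTPN22* lies on chromosome 1 from 114356433 to 114414375 and *PTPRC* on the same chromosome from 198607587 to 198726605. *FYN* lies on chromosome 6 from 111981535 to 112194655. The other members are on chromosome 8, *BLK* from 11344403 to 11422108, *LYN* from 56792394 to 56926728 and *PAG1* from 81880045 to 82024303. Exons of *BLK* and of *PTPN22* overlap an annotated long noncoding RNA of the opposite strand. The libraries were made with a stranded kit, but the strand setting of the counting was not given in the sources used here, so reads of these 2 genes and of their antisense partners cannot be told apart.

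The total count per sample was between 7039594 and 16592492. The deepest sample was the RCH-ACV *SOX11* siRNA replicate 2, with the next deepest at 12342472. *SOX11* was lower in every *SOX11* siRNA sample of its line than in every control sample, and its log2 fold change was -0.83 in REH (SE 0.06), -0.91 in 697 (SE 0.07) and -0.67 in RCH-ACV (SE 0.05). Markers of the B lineage were above 1 CPM (the count scaled to library size), as a mean over the 6 samples of a line, for 9 of 10 genes in REH and 10 of 10 in 697 and RCH-ACV. The exception in REH was *VPREB1*, at 0.0317 CPM with control siRNA against 215 CPM in 697 and 180 CPM in RCH-ACV. Of 8 T-lineage markers 0 exceeded 1 CPM in any line, their summed level stayed between 0 and 0.58 CPM, and *CD3D* was at 0 in all samples. *LCK*, and in part *FYN*, are best known from T cells. Of 7 myeloid markers 1 exceeded 1 CPM by the same mean in each line, *MPO* in REH and *CSF1R* in 697 and RCH-ACV, and *ITGAM* was at 1.07 CPM in the REH controls alone. Their summed level was 15.1 to 17.0 CPM with control siRNA and 9.48 to 11 CPM with *SOX11* siRNA in REH, where *MPO* was lower (log2 fold change -0.78, SE 0.12, adjusted p = 0.000237). It was 2.35 to 4.05 against 3.36 to 4.64 CPM in 697 and 27.0 to 31.2 against 23.6 to 29.4 CPM in RCH-ACV, and the part of these markers in the results was not tested.

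The level of *CSK* differed between the lines. With control siRNA, the *CSK* level (NM_004383), scaled by TMM library sizes, was 134, 151 and 144 CPM in the REH replicates, 88.0, 96.1 and 99.8 CPM in 697, and 41.9, 38.6 and 39.7 CPM in RCH-ACV. The 3 lines did not overlap, with REH highest and RCH-ACV lowest, as 76.6% of all genes tested did not between 697 and REH, 77.7% between RCH-ACV and REH and 66.5% between RCH-ACV and 697. Relative to REH, the control level of *CSK* was lower by a log2 difference of -0.59 in 697 (SE 0.06, adjusted p = 6.41e-08) and -1.82 in RCH-ACV (SE 0.07, adjusted p = 3.06e-14), and RCH-ACV was lower than 697 by -1.23 (SE 0.07, adjusted p = 4.11e-11). These lines differed in most genes: of all genes tested, 76.3% passed the threshold (Benjamini-Hochberg adjusted p under 0.05, edgeR's quasi-likelihood test) between 697 and REH, 73.9% between RCH-ACV and REH, and 64.2% between RCH-ACV and 697. Of the 8 members 8, 7 and 7 passed in these comparisons, which is read against those shares. In size, the median absolute log2 difference was 1.15, 1.77 and 1.22 over the members and 0.56, 0.47 and 0.36 over all genes. In bulk samples fewer cells of a type and less RNA per cell cannot be told apart.

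Of the 4 Src-family kinases 3 (*BLK*, *LYN* and *LCK*) ran the other way from *CSK* between REH and the other lines. The kinase *BLK*, a B-lineage member of the family, was at 94.3 ± 2.73 CPM in REH, 208 ± 11.7 CPM in 697 and 324 ± 11.2 CPM in RCH-ACV with control siRNA (SD, n = 3 each). All 3 lines were apart, with log2 differences of 1.15 for 697 over REH (SE 0.05), 1.79 for RCH-ACV over REH (SE 0.05) and 0.64 for RCH-ACV over 697 (SE 0.05). *LYN*, the kinase that both starts and restrains B-cell receptor signaling, was at 28.5, 29.7 and 28.3 CPM in the REH controls, against 106, 97.0 and 90.9 CPM in 697 and 93.8, 98.2 and 95 CPM in RCH-ACV. Both lines were above REH, by 1.77 and 1.74 on the log2 scale (SE 0.07 each), and their ranges overlapped. Between RCH-ACV and 697 the log2 difference of *LYN* was -0.04 (95% interval -0.16 to 0.09, adjusted p = 0.62). *LCK* was at 11, 12.0 and 10.7 CPM in REH, 35.1, 37.6 and 35.1 CPM in 697 and 19.4, 25.1 and 21.6 CPM in RCH-ACV. It was highest in 697, by 1.67 over REH (SE 0.10) and with RCH-ACV at -0.71 below it (SE 0.09).

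*FYN* followed another order. Its control level was 54.3, 50.4 and 48.9 CPM in REH, 41.5, 39.8 and 30.9 CPM in 697 and 101, 104 and 105 CPM in RCH-ACV. RCH-ACV was highest and 697 lowest, with no overlap, and the log2 difference was -0.44 for 697 against REH (SE 0.09, adjusted p = 0.000151) and 1.02 for RCH-ACV against REH (SE 0.07). The lines 697 and RCH-ACV therefore lay on either side of REH for *FYN*, with RCH-ACV above 697 by 1.47 (SE 0.08).

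*PTPRC* and *PAG1*, which oppose and place *CSK*, varied most among the 8 members, with an SD of log2 CPM over the 18 samples of 3.81 and 1.86, and *PTPN22* varied least (0.561). *PAG1* was at 494, 512 and 467 CPM in the REH controls, 26.1, 21.3 and 15.9 CPM in 697 and 82.6, 96.0 and 81.0 CPM in RCH-ACV. REH stood far above both other lines, with log2 differences of -4.52 for 697 (SE 0.10) and -2.50 for RCH-ACV (SE 0.08). *PTPRC* was at 312, 311 and 326 CPM in REH and at 159, 146 and 142 CPM in 697. In RCH-ACV the controls held 3, 1 and 9 *PTPRC* reads, 13 in all, and the *SOX11* siRNA samples 9, 11 and 8. By total counts, without TMM scaling, the control level of *PTPRC* was 634 times higher in REH than in RCH-ACV (95% interval 370 to 1190). It was 275 times higher in 697 than in RCH-ACV (161 to 518). The exact intervals cover counting error only. The ratios rest on the 13 reads, 9 of them in control replicate 3. Without that replicate the fitted log2 difference of *PTPRC* went from -9.20 to -10.25 against REH and from -8.13 to -9.17 against 697, and without control replicate 2 it was -8.80 and -7.72. *PTPN22* was at 7.61 ± 0.60 CPM in REH, 16.7 ± 1.73 CPM in 697 and 7.23 ± 1.15 CPM in RCH-ACV with control siRNA (SD, n = 3 each). It was higher in 697 than in REH by 1.16 on the log2 scale (SE 0.13, adjusted p = 2.24e-07), whereas RCH-ACV and REH differed by -0.06 (95% interval -0.38 to 0.27, adjusted p = 0.749).

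**Figure D1:**
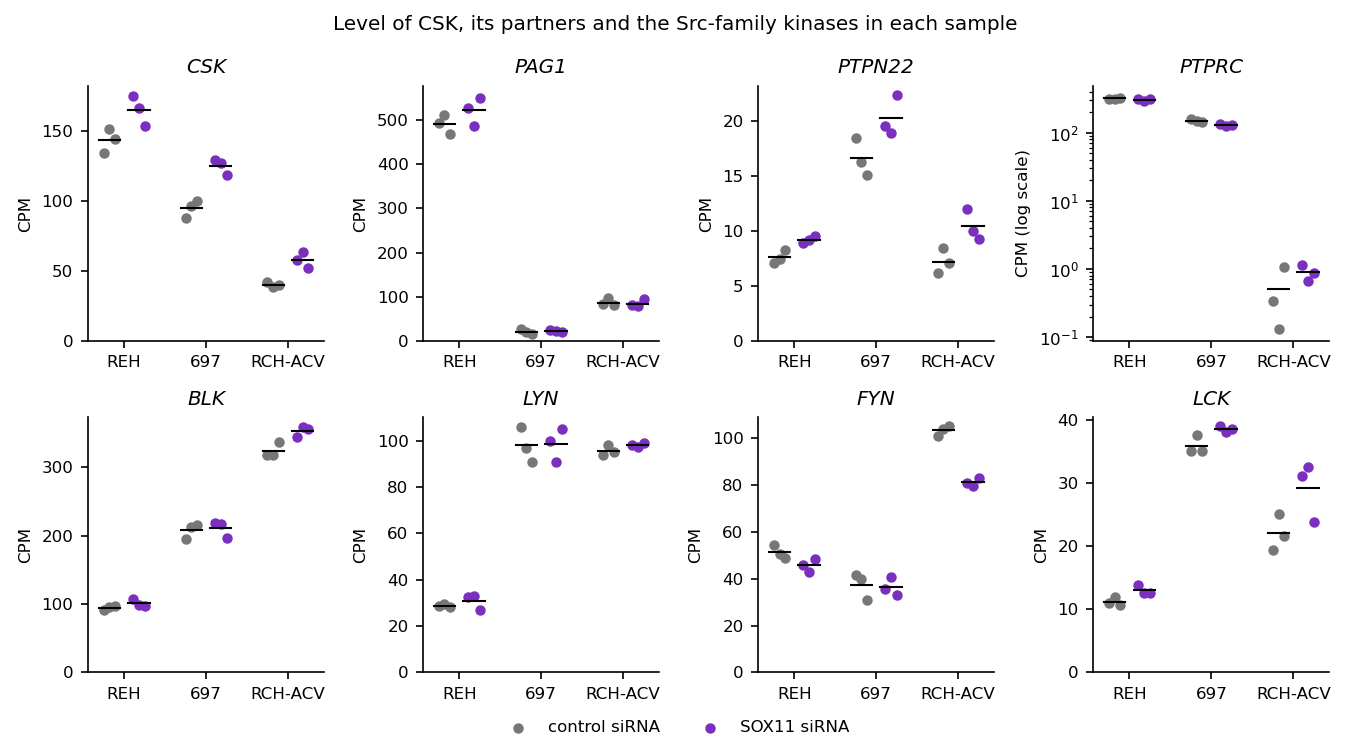
Levels of the 8 genes in CPM (TMM-scaled) in each of the 18 samples, by cell line, with control siRNA in grey and *SOX11* siRNA in purple. Points are samples, lines are group means, and the axis of *PTPRC* is logarithmic. *CSK* was highest in REH and lowest in RCH-ACV while *BLK* went the other way, and *PTPRC* was at most 1.14 CPM in all RCH-ACV samples.

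To compare genes with each other, levels were expressed per kilobase of the GENCODE canonical transcript (RPKM), which may differ in length from the RefSeq transcript that was counted. In REH the order was *PTPRC* (58.1 to 60.9 RPKM), *CSK* (48.8 to 54.9), *PAG1* (43.4 to 47.7), *BLK* (41.2 to 43.5), *FYN*, *LCK*, *LYN* and *PTPN22*, and the neighbours *PAG1* and *BLK* overlapped. In 697 it was *BLK* (87.8 to 97.5 RPKM), *CSK* (32.1 to 36.4), *PTPRC* (26.5 to 29.7), *LCK*, *LYN*, *FYN*, *PTPN22* and *PAG1*, with *LCK* and *LYN* overlapping. In RCH-ACV *BLK* led at 143 to 152 RPKM, followed by *FYN* (28.0 to 29.1), *LYN* (16 to 16.7), *CSK* (14.1 to 15.3), *LCK*, *PAG1*, *PTPN22* and *PTPRC*, and no neighbours overlapped. With the shortest transcript of the same coding length, *CSK* moved above *PTPRC* in REH and above *LYN* in RCH-ACV.

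Of the Src-family kinases among the members, *BLK* held most of the mRNA in every line. Of the summed RPKM of *LYN*, *FYN*, *BLK* and *LCK* in the controls, *BLK* made up 63.6% ± 1.42 in REH, 68.0% ± 2.52 in 697 and 72.5% ± 0.974 in RCH-ACV (SD, n = 3 each). *FYN* followed in REH with 21.1% ± 1.33 and in RCH-ACV with 14.2% ± 0.140, and in 697 *LCK* held 12.4% ± 0.280 and *LYN* 12.1% ± 1.21. The sum was 67.0 ± 0.769 RPKM in REH, 138 ± 3.77 RPKM in 697 and 202 ± 5.60 RPKM in RCH-ACV. Other members of the family were counted outside this sum, so the shares of *BLK* in the whole family were lower. In the REH controls *BLK* did not hold most of the mRNA of the whole family. *SRC* was at 9.87 to 12.2 RPKM on average in the 3 lines and *YES1*, a broadly expressed member, at 22.5 ± 1.96 RPKM in 697 against 7.18 ± 0.176 in REH and 8.0 ± 0.349 in RCH-ACV. *FGR* was at most 0.131 RPKM on average in every group.

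The summed kinases and their inhibitor thus ran in opposite directions across the lines. Per unit of summed *LYN*, *FYN*, *BLK* and *LCK*, the *CSK* level with control siRNA was 0.737, 0.810 and 0.783 in the REH replicates, 0.239, 0.247 and 0.263 in those of 697, and 0.0777, 0.0702 and 0.0697 in RCH-ACV. The lines did not overlap. With *SOX11* siRNA the REH ratios were 0.869, 0.888 and 0.821, the 697 ratios 0.328, 0.323 and 0.322, and the RCH-ACV ratios 0.101, 0.107 and 0.0897. Each of these samples lay above all controls of its line. Since *CSK* was chosen for its change with siRNA, that shift is a description. These are mRNA ratios and give no measure of kinase activity.

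**Figure D2:**
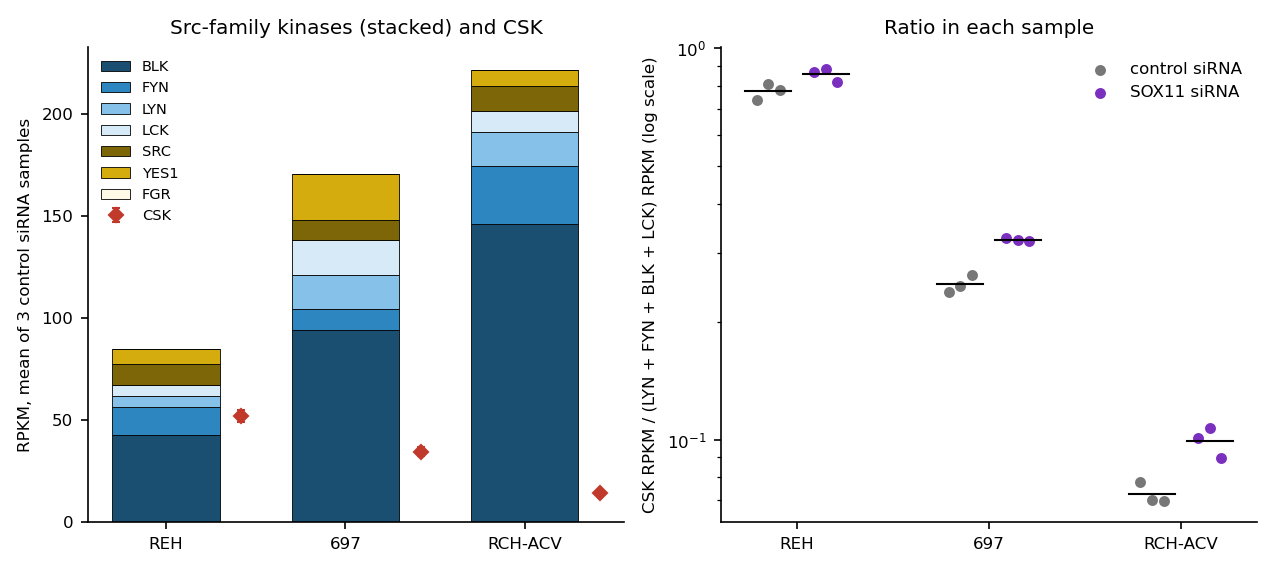
Left, mean RPKM of the Src-family kinases *BLK*, *FYN*, *LYN*, *LCK*, *SRC*, *YES1* and *FGR*, stacked, and of *CSK* (red diamonds, bars are SD) in the 3 control siRNA samples of each line. Right, *CSK* divided by the sum of *LYN*, *FYN*, *BLK* and *LCK* in each sample, on a log axis, with lines at the group means. The sum of the 4 was 67.0 RPKM in REH and 202 RPKM in RCH-ACV, the ratio went the other way, and *SOX11* siRNA samples lay above the controls in each line.

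With *SOX11* siRNA the *CSK* level was 175, 166 and 153 CPM in REH, 129, 127 and 118 CPM in 697, and 57.8, 63.7 and 51.9 CPM in RCH-ACV. Every one of these samples lay above every control sample of its line, as for 10.9% of all genes tested (REH), 6.15% (697) and 12.2% (RCH-ACV). The log2 fold change of *CSK* was 0.21 in REH (SE 0.05), 0.40 in 697 (SE 0.07) and 0.54 in RCH-ACV (SE 0.08), that is 15.4%, 31.6% and 45.7% higher, and 0.35 over the 18 samples together (SE 0.05). With any 1 sample left out it was 0.16 to 0.26 (REH), 0.34 to 0.44 (697) and 0.45 to 0.62 (RCH-ACV). These ranges come from the samples on which *CSK* was chosen and are a description only. The fold change was smallest in REH, where the control level of *CSK* was highest. It was largest in RCH-ACV, where *SOX11* fell least (log2 fold change -0.67). No test of a difference between the lines is given for *CSK*. The second RefSeq transcript of *CSK*, NM_001127190, held 98.6% to 99.1% of the reads of the first and so gave no separate measure. Summed B-lineage markers were at 4280 to 4430 CPM with control siRNA and 4690 to 4780 CPM with *SOX11* siRNA in REH, at 2720 to 2760 and 2470 to 2540 CPM in 697, and at 2360 to 2420 and 2390 to 2540 CPM in RCH-ACV. The sum did not stand for all its markers. In REH *MME* went from 1130 to 1440 CPM (log2 fold change 0.36, SE 0.03, adjusted p = 5.29e-08) and *CD79A* was higher (0.13, adjusted p = 0.0253). *EBF1* was lower in REH (-0.13, adjusted p = 0.0294) and in 697 (-0.34, adjusted p = 0.031). In RCH-ACV, where 7.64% of all genes tested passed, 3 of 10 markers passed the threshold, all higher. These were *MME* (0.56, adjusted p = 0.00728), *CD79A* (0.46, adjusted p = 0.000256) and *CD22* (0.20, adjusted p = 0.0149). *EBF1* (-0.17, adjusted p = 0.057) and *BLNK* (-0.15, adjusted p = 0.191) were lower in RCH-ACV and did not pass. The median log2 fold change of the tested B-lineage markers was 0.05 in REH and 0.06 in RCH-ACV, with -0.07 in 697, and their part in the result was not tested.

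Of the 7 other members 0 passed the threshold in REH (4.65% of all genes tested passed) and 0 in 697 (0.559%). At an unadjusted p under 0.05 the REH fit held 4 members (*FYN*, *BLK*, *PAG1* and *PTPN22*), with 16.9% of all genes tested, and the 697 fit 2 (*PTPRC* and *PTPN22*), with 8.31%. After adjustment DESeq2 gave 0 members in both lines. In RCH-ACV, where 7.64% of all genes passed, 6 of the 7 could be tested and 3 passed, *FYN* lower and *LCK* and *PTPN22* higher. Over the 18 samples with line as a covariate, 9.02% of genes passed, and the same 3 members were among them.

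*FYN* fell in RCH-ACV. It was at 101, 104 and 105 CPM with control siRNA and at 80.8, 79.4 and 82.9 CPM with *SOX11* siRNA, with no overlap, as for 13.9% of genes tested that were lower. This was a log2 fold change of -0.36 (SE 0.05, adjusted p = 0.000393). In REH the *SOX11* siRNA samples (45.8, 42.8 and 48.3 CPM) also lay below the controls, as 10.6% of all genes tested did, and the log2 fold change was -0.16 (95% interval -0.29 to -0.03, adjusted p = 0.185). In 697 the groups overlapped, at -0.04 (95% interval -0.31 to 0.23, adjusted p = 0.981). The common log2 fold change was -0.22 (SE 0.05, adjusted p = 0.007), and a difference between the lines was not called (adjusted p = 0.424, with 0.727% of all genes called). *FYN* has 3 RefSeq transcripts. Among reads that NM_153047 or NM_002037 held beyond NM_153048, those of NM_153047 made up 74.1% in the REH controls (95% exact binomial interval 67.6 to 79.8), 72.7% in 697 (63.4 to 80.8) and 84.6% in RCH-ACV (80.4 to 88.1), and with *SOX11* siRNA 80.4%, 76.6% and 81.5%. Within each line the intervals of the 2 siRNAs overlapped.

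*LCK* and *PTPN22* were higher in RCH-ACV, with thinner counts behind them. *LCK* was at 19.4, 25.1 and 21.6 CPM with control siRNA and at 31.2, 32.5 and 23.8 CPM with *SOX11* siRNA, so that the third *SOX11* siRNA sample lay below the second control sample. On the log2 scale the difference was 0.43 (SE 0.12, adjusted p = 0.0336). The call was lost without *SOX11* siRNA replicate 1 (adjusted p = 0.102) or 2 (0.228) and without control replicate 1 (0.182) or 3 (0.113). In REH and 697 the *LCK* fold changes were 0.21 (95% interval -0.02 to 0.44, adjusted p = 0.344) and 0.10 (-0.07 to 0.27, adjusted p = 0.84), and in both lines the *SOX11* siRNA samples lay above the controls, as did 10.9% and 6.15% of all genes tested. The common log2 fold change of *LCK* was 0.24 (SE 0.07, adjusted p = 0.0168), a call lost without the RCH-ACV *SOX11* siRNA replicate 2 (adjusted p = 0.0626) or the RCH-ACV control replicate 1 (0.0537).

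*PTPN22*, the phosphatase that binds *CSK*, was counted in 54, 65 and 61 reads in the RCH-ACV controls and 95, 168 and 85 reads with *SOX11* siRNA, or 6.15, 8.44 and 7.10 CPM against 12.0, 10.0 and 9.27 CPM. The groups did not overlap, as for 12.2% of all genes tested that were higher. The log2 fold change of *PTPN22* was 0.52 (SE 0.15, adjusted p = 0.0407), a call that was lost with DESeq2 (adjusted p = 0.116), and without *SOX11* siRNA replicate 1 (0.133) or 2 (0.107) or control replicate 1 (0.196) or 3 (0.121). In REH and 697 the log2 fold changes were 0.30 (95% interval 0.03 to 0.56, adjusted p = 0.226) and 0.28 (0.03 to 0.54, adjusted p = 0.535), with no overlap between groups in either line, as for 10.9% and 6.15% of all genes tested that were higher. Over the 18 samples *PTPN22* was higher by 0.35 (SE 0.07, adjusted p = 0.00248), and this call held without any 1 sample. A difference between the lines was not called for *LCK* (adjusted p = 0.561) or for *PTPN22* (adjusted p = 0.85).

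The remaining 4 members did not pass in any line. For *LYN* the log2 fold change was 0.09 in REH (95% interval -0.08 to 0.26), 0.01 in 697 (-0.15 to 0.17) and 0.03 in RCH-ACV (-0.07 to 0.14), and the common value was 0.04 (-0.05 to 0.12, adjusted p = 0.664). *BLK* was at 318, 317 and 337 CPM in the RCH-ACV controls and 344, 359 and 355 CPM with *SOX11* siRNA. The groups did not overlap there or in REH, as for 12.2% (RCH-ACV) and 10.9% (REH) of all genes tested that were higher. The log2 fold change of *BLK* in RCH-ACV was 0.12 (SE 0.04, adjusted p = 0.0743). In REH the log2 fold change of *BLK* was 0.11 (95% interval 0.01 to 0.21, adjusted p = 0.255), and in 697 it was 0.01 (-0.13 to 0.16, adjusted p = 0.986). In RCH-ACV *BLK* passed when the *SOX11* siRNA replicate 3 was left out (adjusted p = 0.0178), and the common value of 0.08 (95% interval 0.02 to 0.15, adjusted p = 0.106) passed without the 697 *SOX11* siRNA replicate 3 (adjusted p = 0.0233). The log2 fold change of *PAG1* was 0.09 in REH (95% interval 0.01 to 0.17), 0.09 in 697 (-0.25 to 0.42) and -0.04 in RCH-ACV (-0.20 to 0.12), and its adjusted p over the 18 samples was 0.677. *PTPRC* was at 159, 146 and 142 CPM with control and 134, 124 and 130 CPM with *SOX11* siRNA in 697, and the groups did not overlap, as for 7.81% of genes tested that were lower. On the log2 scale the change of *PTPRC* was -0.21 in 697 (95% interval -0.33 to -0.08, adjusted p = 0.243) and -0.05 in REH (-0.12 to 0.03, adjusted p = 0.561). In RCH-ACV *PTPRC* did not pass the filter on low counts. By total counts, without TMM scaling, the ratio of *SOX11* siRNA to control was 1.61 (95% counting interval 0.806 to 3.38).

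**Figure D3:**
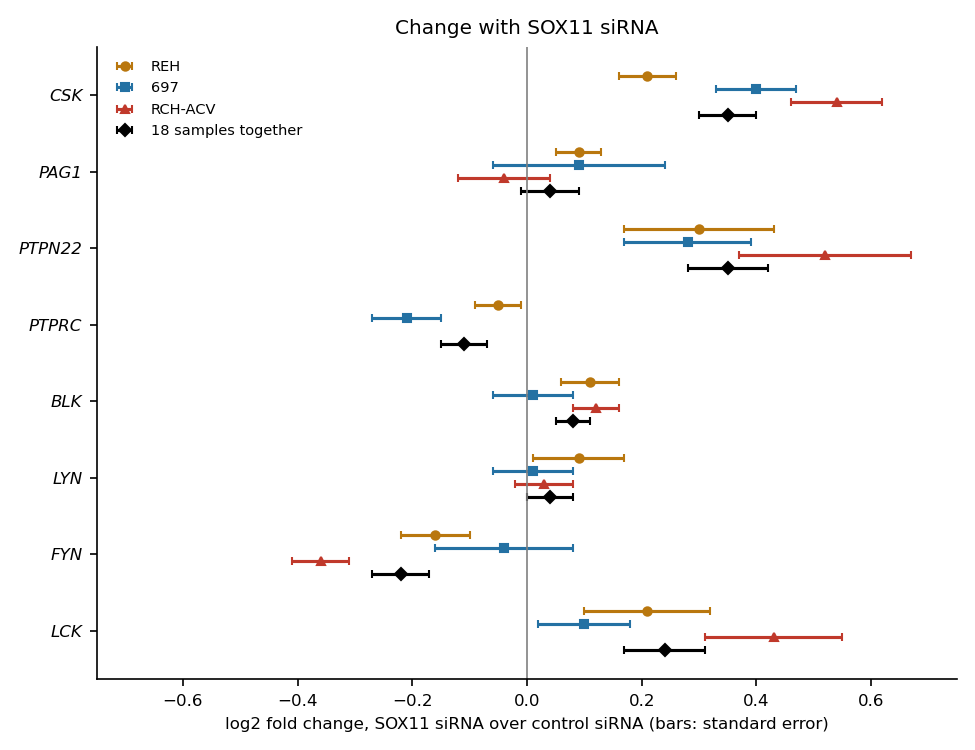
Log2 fold change of *SOX11* siRNA over control siRNA for the 8 genes in REH (circles), 697 (squares), RCH-ACV (triangles) and all 18 samples with line as a covariate (diamonds), with bars of 1 standard error. *FYN* lay below 0 and *CSK*, *PTPN22* and *LCK* above 0 in every line, while *PTPRC* in RCH-ACV is absent because its counts were too low to test.

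*PTPRC* is spliced with or without a group of variable extracellular exons, and reads on NM_002838 that NM_080921 lacks made up 8.32% of *PTPRC* reads in the REH controls (95% exact binomial interval 7.78 to 8.89) and 5.15% in 697 (4.42 to 5.95). With *SOX11* siRNA the shares were 8.16% and 5.15%. The share was thus higher in REH than in 697 beyond counting error and did not move with siRNA by more than it. The RCH-ACV controls held 0 such reads of 13, which allows a share of up to 24.7%.

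The other genes of the pathway were taken as whole lists. Of 10 adaptors that can bind *CSK*, *PAG1* among them, 9 were tested in RCH-ACV, where 7.64% of all genes passed, and 2 of them passed, both higher, *LIME1* (log2 fold change 0.69, SE 0.13, adjusted p = 0.00337) and *LAX1* (0.88, SE 0.21, adjusted p = 0.0167), transmembrane adaptors of lymphocytes. None passed in REH, in 697 or over the 18 samples. The counts behind *LAX1* were thin. Mean levels in RCH-ACV with control and *SOX11* siRNA were 2.17 and 3.93 CPM for *LAX1* and 9.82 and 16.1 CPM for *LIME1*. The list's median log2 fold change in RCH-ACV was 0.08, against 0.01 for all genes tested. Of the other Src-family and related kinases 3 of 7 were expressed enough to test in REH, and *YES1* passed, where 4.65% of all genes did, lower by -0.25 (SE 0.07, adjusted p = 0.0473). The CSK-related kinase *MATK* was at or near 0 in all groups.

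Among 11 phosphatases that act on these kinases or with *CSK*, 6 passed over the 18 samples, where 9.02% of all genes passed, 3 in each direction, and the list's median was -0.03 against 0 for all genes. *PTPN6* (SHP-1), which is recruited by inhibitory receptors, rose by 0.30 in REH (SE 0.08, adjusted p = 0.0336) and 0.46 in RCH-ACV (SE 0.06, adjusted p = 0.000317), with 0.26 in 697 (SE 0.07, adjusted p = 0.217). Its common log2 fold change was 0.36 (SE 0.05, adjusted p = 8.81e-06), close in size to that of *CSK*. *PTPN12* (PTP-PEST), a phosphatase that also binds *CSK*, fell by 0.41 in RCH-ACV (SE 0.09, adjusted p = 0.00654) and its common log2 fold change was -0.32 (SE 0.05, adjusted p = 0.000158). *PTPN22* and *PTPN12*, close relatives, thus changed in opposite directions. Of the others, *PTPN18* was higher (0.11, SE 0.03) and *PTPRA*, a receptor phosphatase that can activate Src kinases, was lower (-0.12, SE 0.03) over the 18 samples.

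Of 18 receptors and substrates next to the kinases, 17 were tested over the 18 samples and 3 passed, against 9.02% of all genes, all higher, with a median log2 fold change of 0.02. *CD79A*, the signaling chain of the pre-B- and B-cell receptor that Src-family kinases phosphorylate, rose by 0.13 in REH (SE 0.03, adjusted p = 0.0253) and 0.46 in RCH-ACV (SE 0.06, adjusted p = 0.000256). *ZAP70*, a kinase that binds such phosphorylated chains, rose by 0.69 in RCH-ACV (SE 0.08, adjusted p = 8.26e-05) and by 0.54 over the 18 samples (SE 0.07, adjusted p = 1.12e-05). *INPP5D* (SHIP1), an inhibitory lipid phosphatase, rose by 0.32 in REH (SE 0.04, adjusted p = 4.81e-06). *PIK3AP1*, an adaptor for PI3-kinase, passed in 697, lower by -0.29 (SE 0.05, adjusted p = 0.0437), and *PLCG2*, the phospholipase of the receptor pathway, rose in REH by 0.17 (SE 0.03, adjusted p = 0.00201). Of the 3 genes for N-myristoylation and lipid binding, through which the kinases reach the membrane, *NMT2* passed over the 18 samples, higher by 0.20 (SE 0.06, adjusted p = 0.0194).

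**Figure D4:**
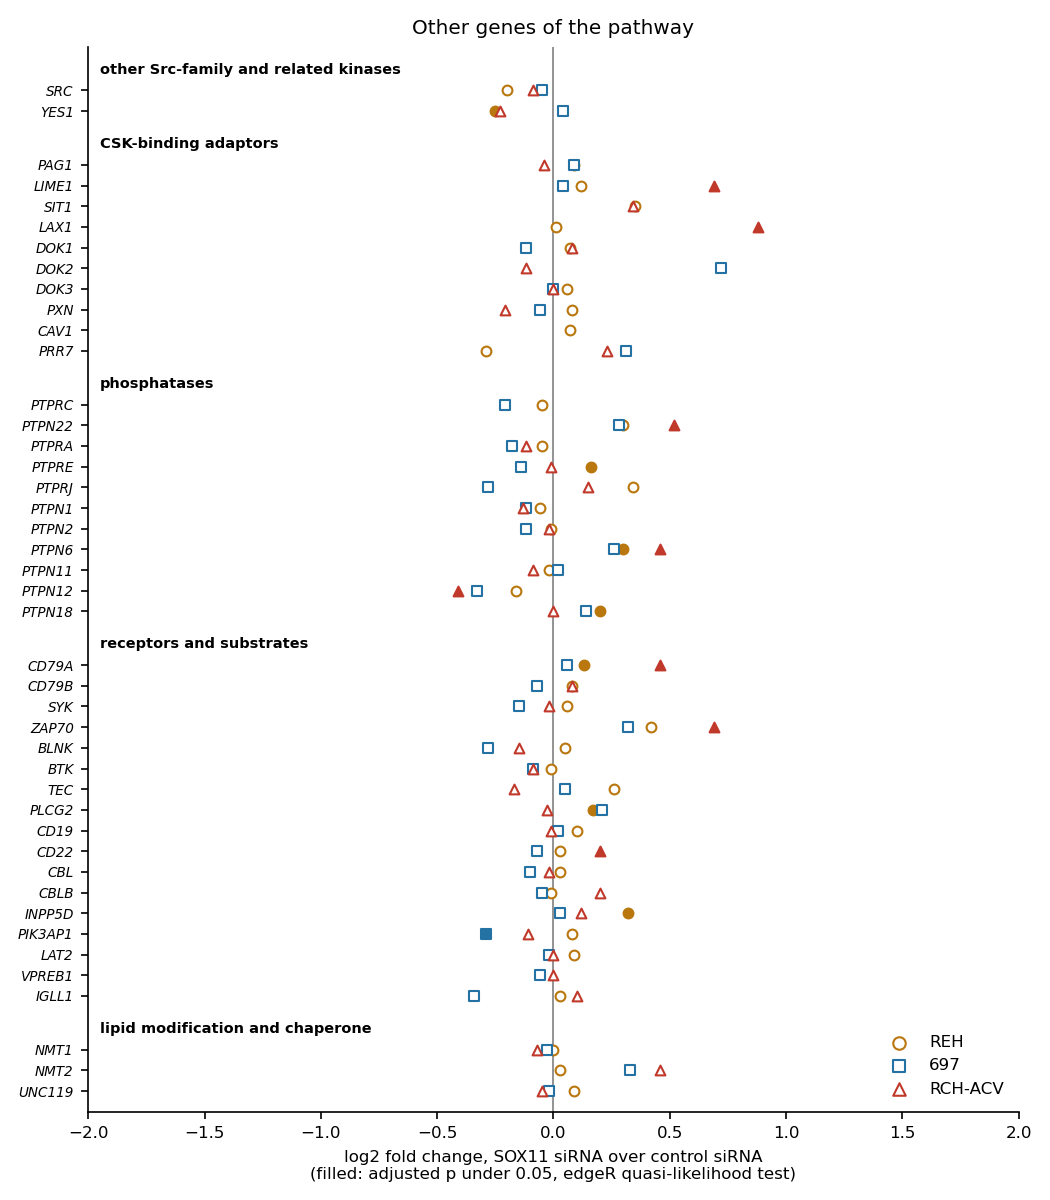
Log2 fold change with *SOX11* siRNA for the tested genes of the 5 pathway lists, apart from 1 not reported here, in REH (circles), 697 (squares) and RCH-ACV (triangles). Filled symbols passed the adjusted p threshold of 0.05. Most symbols are open and lie around 0, and the filled ones are in REH and RCH-ACV apart from *PIK3AP1* in 697.

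Genes whose pattern over the 18 samples was most like that of a member were found by the root mean square difference of centred log2 CPM profiles, over the 11187 genes whose mean reached 5 CPM. For *CSK*, 4 of the 5 nearest were *HLA-F* (0.227), *MIR600HG* (0.242), *DLEU1* (0.245) and *SPATC1L* (0.249), against a standard deviation of 0.731 for *CSK* itself. The nearest profile was *ASAH1* for *LYN* (0.0966), *ZNF562* for *FYN* (0.166), *SACM1L* for *BLK* (0.128), *TPI1* for *LCK* (0.123), *HLA-DOA* for *PAG1* (0.208) and *CLEC2D* for *PTPN22* (0.162). For *PTPRC* it was *MYO10* at 0.806, in a profile with a standard deviation of 3.81. The likeness rests mostly on the differences between the 3 lines, which all samples of a line share.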

How the data were processed

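RNA was sequenced from 18 samples of 3 cell lines. The authors trimmed and filtered reads, mapped them with STAR 2.5.3a (genome build hg19), discarded reads with more than 2 locations and counted with HOMER. The deposited values were raw counts on RefSeq transcripts, without normalization, in 1 table for each line, and 0 columns belonged to other samples. Symbols were matched to transcripts (98.0% of transcripts, 99.0% of counts), and the transcript with the highest total was kept, giving 26941 genes. Overlapping transcripts share reads, so this choice affects levels more than fold changes. Total counts were 7039594 to 16592492, so that 3 counts correspond to 0.181 to 0.426 CPM.

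Each line was fitted with edgeR 4.0.16 (R 4.3.3; TMM, filterByExpr, quasi-likelihood F-test, two-sided), over all genes, with Benjamini-Hochberg adjustment. The 18 samples were fitted together for the common effect and the difference between lines, and the 9 controls for differences between lines. Standard errors are the log2 fold change over the root of F. CPM use TMM-scaled library sizes, and RPKM divide them by the GENCODE canonical transcript length. The fits were also run on simulated data, with the same spread for all genes and effects larger than the siRNA effects of the members. That run does not show how well effects of the members' size are found. Same-numbered samples did not deviate together, so the numbers were taken as names.

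The members and lists were chosen with earlier results of these data known, and *CSK* for its change with siRNA. All members are named. Genes of the pathway lists are named when they pass in a line or in the common effect, up to 5 a list by the smallest common adjusted p. Nearest profiles are the 5 closest genes for *CSK* and the closest for each other member. Some items these rules name are not reported here. Alternatives were other scalings, filters, transcript choices, DESeq2 1.42.0, 1 fit over 18 samples, a replicate block and leaving out each sample. Added after seeing the data were the legacy quasi-likelihood method and the shortest transcript of the same coding length. Plots were made with matplotlib 3.10.9.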

Additional observations from a re-analysis of the deposited data

Results flagged for a closer look

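Among the receptors and substrates next to the Src-family kinases, 3 genes differed between the lines in the effect of *SOX11* siRNA by the interaction test over the 18 samples (edgeR's quasi-likelihood test), while 0 of the 7 members tested did. The log2 fold change of *PIK3AP1* was 0.08 in REH, -0.29 in 697 and -0.11 in RCH-ACV (adjusted p of the difference 0.00545). That of *CD79A* was 0.13 in REH, 0.06 in 697 and 0.46 in RCH-ACV (adjusted p 0.0258). *IGLL1*, a surrogate light chain of the pre-B-cell receptor, was at 0.03 in REH, -0.34 in 697 and 0.10 in RCH-ACV (adjusted p 0.0255), and it was chosen after its values were seen. Over all genes tested 0.727% were called.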

How the results depend on the processing

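Of 473 values of the members under the alternatives that kept all samples, 469 counted as the same. That meant the same direction and side of the threshold, or the side alone for the difference between the lines, which has no direction. For *CSK* with *SOX11* siRNA, which had no threshold, it meant the same direction and a shift within the SD of the replicates. The direction of *CSK* was the same in all, in the samples on which it was chosen. The exceptions were *PTPN22* in RCH-ACV, no longer called with DESeq2 (0.53, adjusted p = 0.116) or with the replicate block (0.51, adjusted p = 0.0829), *PTPN22* between RCH-ACV and REH, at 0.16 in the *SOX11* siRNA samples, and *LYN* between RCH-ACV and 697, at 0.03 by library size alone. Library size alone moved the median of all genes by -0.15 (log2) between 697 and REH and by at most 0.07 elsewhere. Levels per length were not among the 473 values. By library size alone 4 of 24 control levels moved by at least the SD of their replicates. These were *LYN*, *BLK* and *PTPRC* in REH and *LCK* in 697, with changes of -5.08% to 4.27% over the 24. The order of levels per length was kept in 3 of 3 lines by library size alone and in 1 of 3 with the shortest transcript.

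The number of genes called was 313 in REH and 582 in RCH-ACV with DESeq2, and 242 in REH and 193 in 697 in 1 fit over the 18 samples. With the replicate block it was 29 in 697, 823 for the common effect and 45 for the difference between the lines. The numbers pair no samples by the labels, the block changed no other call of a member, and same-numbered deviations correlated at -0.15 to 0.156 over the lines.

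Leaving out 1 sample at a time gave 299 to 521 genes in REH, 25 to 71 in 697, 386 to 2518 in RCH-ACV, 910 to 1473 for the common effect and 57 to 185 for the difference between the lines. Between control samples it gave 10022 to 10475 genes for 697 and REH, 9568 to 10597 for RCH-ACV and REH, and 8156 to 8782 for RCH-ACV and 697. Values not called in either case changed sign for *LYN* (-0.04 to 0.07), *BLK* (-0.04 to 0.07), *FYN* (-0.15 to 0.05) and *PAG1* (-0.08 to 0.28) in 697, *PAG1* in RCH-ACV (-0.12 to 0.04), *PTPN22* between RCH-ACV and REH (-0.17 to 0.05) and *LYN* between RCH-ACV and 697 (-0.09 to 0.03). The cause of these shifts was not tested. Depth limits *PTPRC* in RCH-ACV most, with 13 reads in the controls.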
